A study of Mus musculus with 6 samples.

Results

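Purinergic signalling genes are described here in mouse bone marrow-derived macrophages, 9 genes of the 55401 in the deposited table, chosen by name: the ATP-gated channels P2rx4 and P2rx7, the nucleotide receptors P2ry2, P2ry6, P2ry12, P2ry13 and P2ry14, the adenosine receptor Adora2b and the ectonucleotidase Entpd1. Each of the 9 has 1 row, and all 9 passed the filter on low counts. The series holds 6 RNA sequencing libraries of such macrophages, 3 labelled KO (Mettl3-/-) and 3 WT (wild type), and compares their transcripts. Both groups came from C57BL/6 bone marrow cultured for 7 days with M-CSF, the growth factor that drives macrophage differentiation, at 40 ng/mL in 10% serum. The labels mention a treatment after those days without naming it. The sources used here do not give how the Mettl3 allele was made, the sex, age or number of the mice, or whether replicates are separate mice or cultures. The p-values therefore refer to the spread among these 6 libraries, and that spread may be technical.

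Cells release ATP, ADP, UTP, UDP and UDP-sugars when stressed or damaged, and macrophages sense them. P2X receptors are cation channels that ATP opens, whereas P2Y receptors couple to G proteins and each prefers its own nucleotides. Surface enzymes then take phosphates off in steps: CD39, encoded by Entpd1, turns ATP and ADP into AMP, CD73 turns AMP into adenosine, and adenosine receptors such as A2B read the product, so that a danger signal is converted into a mostly anti-inflammatory one.

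Library totals ran from 68145877 to 77997742 estimated counts in the libraries labelled KO and from 67280390 to 68658821 in WT. Mettl3, which encodes the catalytic subunit of the m6A writer, showed no lower level in labelled KO, at 2.504, 2.56 and 2.93 FPKM (fragment counts scaled to the exonic length of the gene and library size), against 2.62, 2.91 and 2.26 FPKM in WT (log2 fold change 0.02, edgeR adjusted p = 0.93). Which exons the allele removes is not given, so a gene-level value may miss a deletion; as it stands, the level of Mettl3 does not bear out the label, and that group is called labelled KO throughout. Of 12 macrophage markers, 11 were tested, with 5 called higher and 2 lower in labelled KO, and the tissue-resident marker Timd4 had too few counts. Their sum was 9945 to 10062 FPKM in labelled KO and 17536 to 17884 FPKM in WT, most of it lysozyme (Lyz2, log2 fold change -1.26), while the complement gene C1qa had a log2 fold change of 0.49. Csf1r, the receptor for M-CSF, stood at 683 to 694 FPKM in labelled KO and 568 to 570 FPKM in WT, and Adgre1, the F4/80 antigen, at 382 to 404 FPKM in labelled KO and 489 to 494 FPKM in WT. Fewer cells of a type and less RNA per cell cannot be told apart in bulk samples such as these. Markers of monocytes and their progenitors moved with the groups, with 8 of 14 tested genes called higher and 1 lower in labelled KO and a summed level of 596 to 608 FPKM there, against 384 to 394 FPKM in WT, led by Hp (log2 fold change 0.88) and Plac8 (0.43). The share called was 64.3% in the monocyte list and 63.6% in the macrophage list, beside 12.7% of all tested genes. Their part in the results below was not tested.

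The messenger RNAs of these genes differ in how often they hold GGACT, a frequent form of the sequence in which METTL3 places m6A. The mark itself was not measured, and a match is a description, not a methylated site. The longest protein-coding transcript of each gene in GENCODE M21 was searched on the transcribed strand. Of the tested genes with such a transcript, 7.9% hold no GGACT, and the median is 1.05 per kilobase. P2ry12, P2ry13 and P2ry14, the 3 receptors that lie side by side on chromosome 3, hold 0 in transcripts of 2344, 2528 and 2476 bases. Among all 1670 tested transcripts of 2000 to 2600 bases, 9.3% hold 0. P2ry6 holds 1 in 1946 bases. At the other end, Entpd1 holds 8 in 4221 bases, P2ry2 holds 6 in 3011 bases, Adora2b holds 4 in 1845 bases and P2rx4 holds 4 in 2702 bases. P2rx7 holds 4 in 4936 bases, 0.81 per kilobase. The match nearest to the stop codon of each of the 6 genes that have one is given here, because these are the places where the genes differ from the chromosome 3 receptors, with the motif in capitals and 10 bases on either side.
P2rx4, coding, chr5:122725318-122725342, plus strand: tcgacactcgGGACTtagaacacaa
P2rx7, coding, chr5:122680808-122680832, plus strand: gaccccagatGGACTtctccgacct
P2ry2, 3′ UTR, chr7:100997819-100997843, minus strand: aagagtagcaGGACTccaaagtccc
P2ry6, 3′ UTR, chr7:100937744-100937768, minus strand: agggtggaggGGACTgctggtgcac
Adora2b, 3′ UTR, chr11:62265761-62265785, plus strand: ataaacaatgGGACTagacacaact
Entpd1, coding, chr19:40738835-40738859, plus strand: aacgcggggtGGACTttgggctaca
These coordinates are in GRCm38, the assembly that mm10 denotes. The Adora2b site lies 48 bases after the start of its stop codon, the closest of the 6, and that of P2rx7 lies 484 bases before its stop codon, the farthest.

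Of the 9 genes, 2 were called higher in the libraries labelled KO and 0 lower (edgeR, quasi-likelihood F test, p-values adjusted by Benjamini-Hochberg over 16256 tested genes). P2ry6, the receptor for UDP, rose by 1.11-fold, and P2ry13, a receptor for ADP, was 1.145-fold higher. Over all tested genes, 7.01% were called higher and 5.67% lower, and the genes were not drawn at random, so the share of 22.2% among the 9 is a description. Without adjustment, 4 of the 9 had a p under 0.05: P2ry6, P2ry13, P2rx4 and Adora2b, where 26.5% of all tested genes had one. The same 4 genes had every library labelled KO above every WT library, and 0 had them all below. Such a gap occurred in 19.1% of all tested genes with labelled KO above and in 14.6% with labelled KO below. The median log2 fold change of the 9 genes was 0.15, and that of all tested genes was -0.005. Leaving out WT replicate 1, 2 or 3 or KO replicate 3 lowered the count of 2 to 1.

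**Figure D1:**
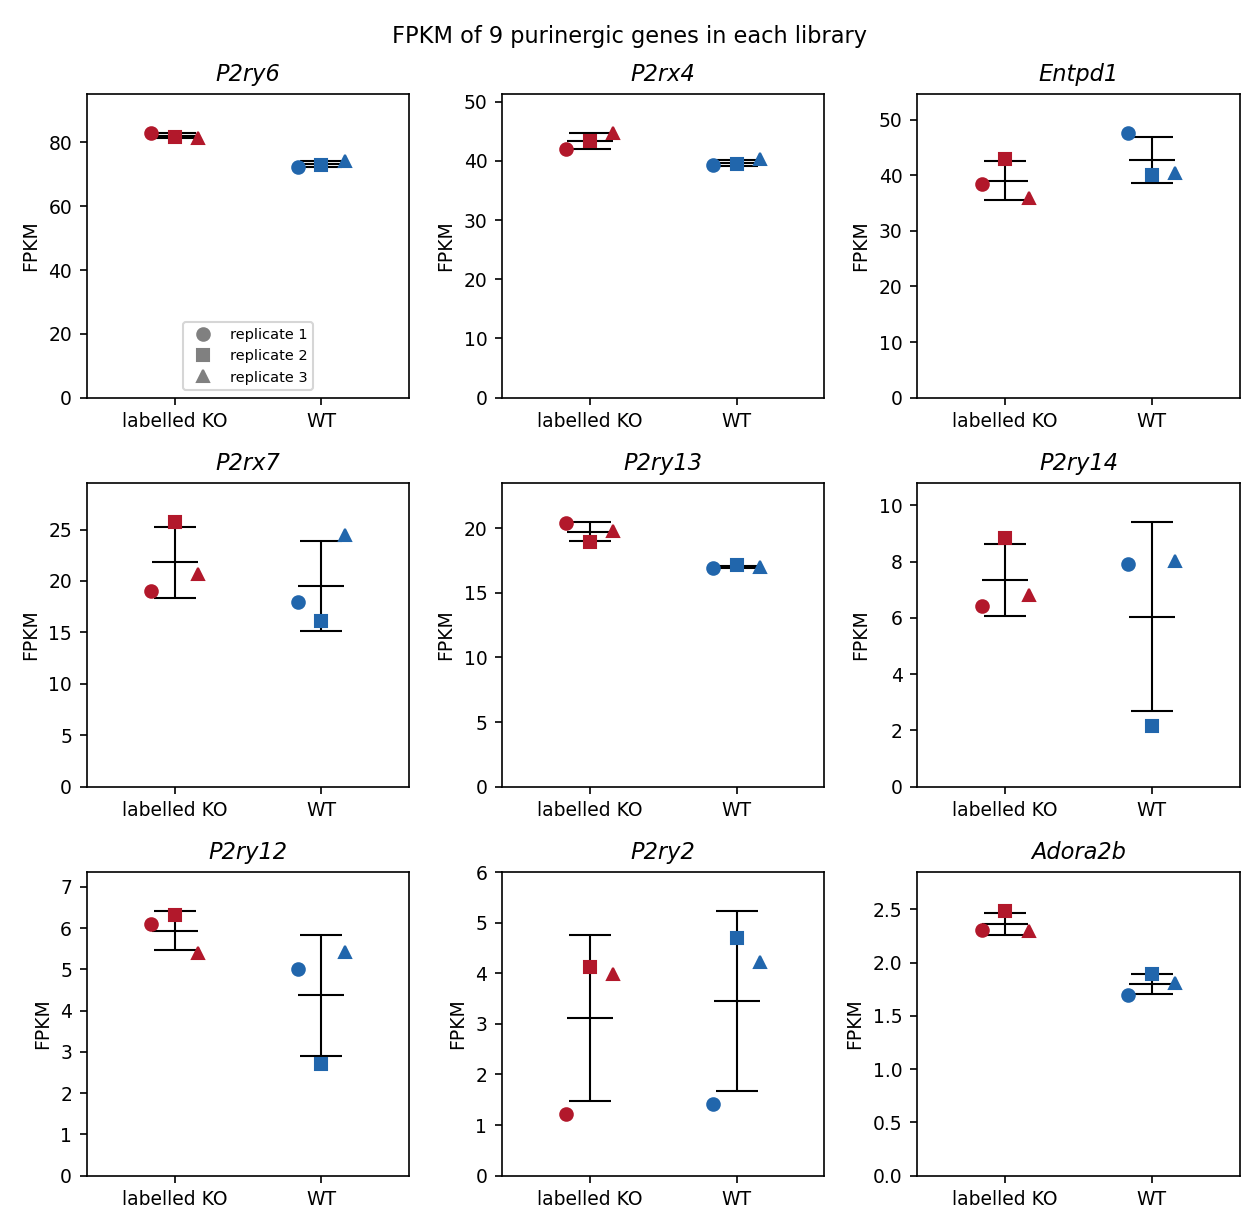
FPKM of the 9 genes in the 3 libraries labelled KO (red, left) and the 3 WT libraries (blue, right). Symbols mark the replicate number, and black bars show the mean and SD of 3 libraries. P2ry6, P2rx4, P2ry13 and Adora2b have no overlap between groups, while in P2ry2, P2ry12 and P2ry14 single libraries read far below the others of their group.

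Both P2X channels lie on the plus strand of chromosome 5, with 23246 bases between them. P2rx4 (ENSMUSG00000029470, 122707544 to 122729738 in mm10) encodes a fast ATP-gated channel found at the surface and in lysosomes. Its FPKM was 41.9, 43.4 and 44.6 in the libraries labelled KO, against 39.3, 39.4 and 40.3 in WT. The groups did not overlap, and the difference was small: the means were 43.3 ± 1.35 FPKM in labelled KO and 39.7 ± 0.530 FPKM in WT (SD, n = 3 each). The log2 fold change was 0.11 (SE 0.029, 95% limits 0.04 and 0.18), and the edgeR adjusted p = 0.0571 missed the threshold. For P2rx4, as for P2ry6, P2ry13 and Adora2b, the two-sided exact permutation p was 0.1, which is the smallest that 3 against 3 libraries allow. The adjusted p fell below the threshold in DESeq2 (0.044), in limma on log2(FPKM + 1) (0.0486) and in edgeR without KO replicate 1 (0.041). It missed the threshold in the other 12 alternatives, with edgeR at 0.0986 to 0.149 in the other fits with 1 library left out. The call of P2rx4 therefore hung on the method and on the libraries used.

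P2rx7 (ENSMUSG00000029468, 122643911 to 122684297) encodes the channel that needs high ATP and triggers the NLRP3 inflammasome. It read 19.1, 25.7 and 20.7 FPKM in the libraries labelled KO, against 17.95, 16.1 and 24.4 FPKM in WT. The groups overlapped, because KO replicate 2 and WT replicate 3 both stood well above the other libraries of their group. P2rx7 stood at 0.14 on the log2 scale for labelled KO over WT (edgeR adjusted p = 0.672, with an SE of 0.18). Its 95% limits, -0.28 and 0.57, correspond to ratios of 0.823 and 1.48. The value was 0.01 without KO replicate 2, 0.03 without WT replicate 2 and 0.34 without WT replicate 3, and uncalled in each. Within groups the coefficient of variation of P2rx7 was 15.9% in labelled KO and 22.4% in WT, on counts of 7382 to 11799, whereas that of P2rx4 was 3.12% in labelled KO and 1.34% in WT. Per exonic length, P2rx4 stood above P2rx7 in every library, by 1.69 to 2.2 times in labelled KO and by 1.65 to 2.44 times in WT. A microRNA gene, Mir8115, lies inside P2rx7 and shares 119 of its 5970 exonic bases.

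P2ry6 and P2ry2 are neighbours on the minus strand of chromosome 7, 21918 bases apart, and both act through the Gq protein and calcium. P2ry6 (ENSMUSG00000048779, 100937630 to 100974649) was the most abundant of the 9 genes per length in both groups. Its FPKM was 82.9, 81.9 and 81.5 in the libraries labelled KO, against 72.4, 73.1 and 74.3 in WT. No labelled KO library came within 7 FPKM of a WT library, and the coefficient of variation was 0.905% in labelled KO and 1.29% in WT. P2ry6 had a log2 fold change of 0.15 (SE 0.022, 95% limits 0.095 and 0.20, edgeR adjusted p = 0.0078). With any 1 library left out the adjusted p stayed between 0.0216 and 0.032, and P2ry6 is the gene among the 9 whose call held in each of those 6 fits.

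P2ry2 (ENSMUSG00000032860, 100996568 to 101011998) encodes a receptor for ATP and UTP that guides phagocytes towards dying cells. It read 1.22, 4.12 and 3.99 FPKM in the libraries labelled KO, against 1.41, 4.71 and 4.22 FPKM in WT. In each group replicate 1 stood at about the same low level, 0.305 of the next lowest library in labelled KO and 0.333 of it in WT. Its neighbour P2ry6 had its highest value of all in KO replicate 1 and its lowest in WT replicate 1, where it was 0.991 of the next WT library. With such a spread P2ry2 stood at -0.17 on the log2 scale for labelled KO over WT (edgeR adjusted p = 0.894, with an SE of 0.58), and its 95% limits, -1.55 and 1.22, span ratios from 0.341 to 2.34. Its sign turned to 0.22 without KO replicate 1, to 0.13 without WT replicate 2 and to 0.01 without WT replicate 3. Leaving out replicate 1 of both groups, an alternative chosen after seeing the data, gave -0.15 (edgeR adjusted p = 0.427).

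**Figure D2:**
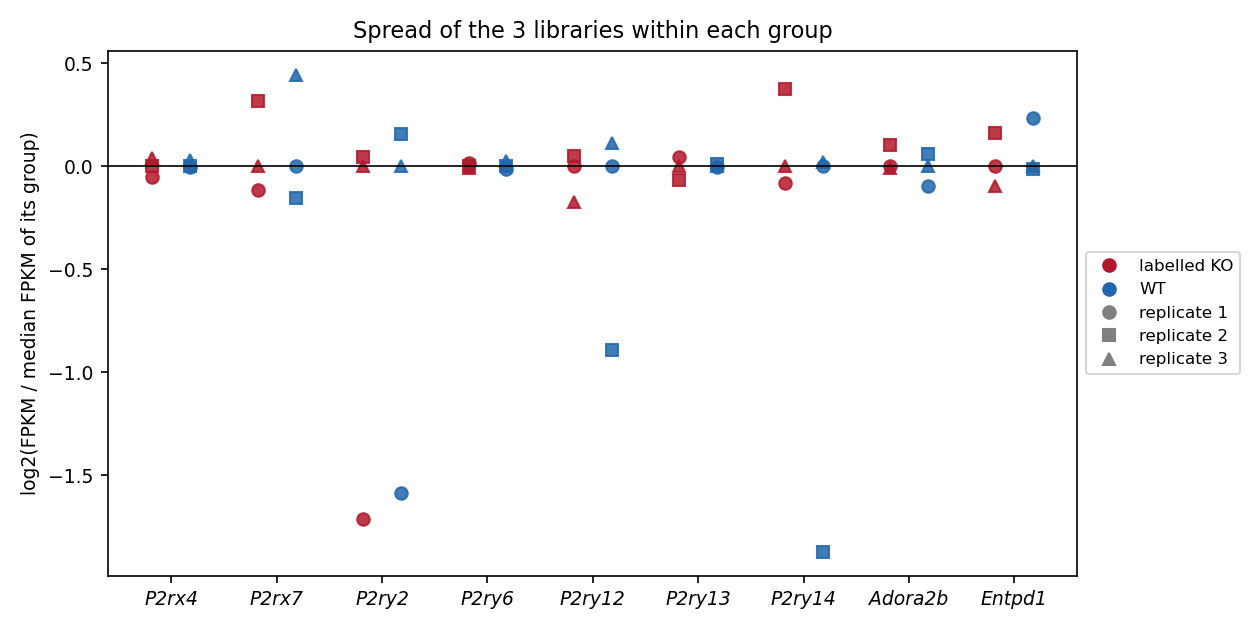
Level of each library relative to its own group, as log2 of FPKM over the median FPKM of the 3 libraries, for the libraries labelled KO (red, left of each pair) and WT (blue, right). P2ry2 was low in replicate 1 of both groups, and P2ry14 and P2ry12 were low in WT replicate 2, while P2rx4, P2ry6 and P2ry13 stayed close to 0 in every library.

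The remaining P2Y genes form a cluster on the minus strand of chromosome 3, inside Med12l on the opposite strand, and their receptors signal through Gi proteins. P2ry13 (ENSMUSG00000036362, 59207892 to 59210882) lies between P2ry14 (ENSMUSG00000036381, 59113855 to 59132462) and P2ry12 (ENSMUSG00000036353, 59216272 to 59262871). P2ry13 read 20.4, 18.9 and 19.8 FPKM in the libraries labelled KO, against 16.9, 17.1 and 17.0 FPKM in WT. The WT libraries agreed to a coefficient of variation of 0.506%, and each library labelled KO lay above them. P2ry13 had a log2 fold change of 0.20 (SE 0.042, 95% limits 0.10 and 0.30, edgeR adjusted p = 0.0282). That call held without KO replicate 2 (edgeR adjusted p = 0.0389) and was lost without any other single library: the adjusted p was 0.0966 and 0.0952 without KO replicates 1 and 3, and 0.091, 0.085 and 0.0825 without WT replicates 1, 2 and 3. Its log2 fold change ran from 0.17 to 0.22 in those fits.

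P2ry12, whose product is the ADP receptor best known from platelets and microglia, read 6.10, 6.31 and 5.41 FPKM in the libraries labelled KO, against 5.01, 2.70 and 5.42 FPKM in WT. WT replicate 2 stood apart, and WT replicate 3 just reached the lowest library labelled KO. The log2 fold change of P2ry12 was 0.42 (edgeR adjusted p = 0.348, with an SE of 0.25), with 95% limits of -0.18 and 1.02, and it dropped to 0.17 without WT replicate 2.

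P2ry14, which encodes the receptor for UDP-glucose, read 6.43, 8.82 and 6.80 FPKM in the libraries labelled KO, against 7.93, 2.17 and 8.03 FPKM in WT. Again WT replicate 2 was low, at 0.273 of the next WT library. P2ry14 stood at 0.27 on the log2 scale for labelled KO over WT (edgeR adjusted p = 0.776, with an SE of 0.46), with 95% limits of -0.84 and 1.37, and it turned to -0.13 without WT replicate 2. P2ry13 in that same library was 17.1 FPKM, the highest of the WT values, so the low reading did not extend to the gene between them. A library under 0.5 times the next lowest of its group was seen in 1.9% of tested genes with a mean of at least 1 FPKM in labelled KO and in 2.05% in WT. Med12l was at 0.41 FPKM in labelled KO and 0.399 FPKM in WT and was not called (log2 fold change 0.02, edgeR adjusted p = 0.944). It shares 9 of the 2546 exonic bases of P2ry12 and 0 of those of P2ry13 and P2ry14.

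Summed over the 5 P2Y genes, the level was 117 to 120 FPKM in the libraries labelled KO and 99.8 to 109 FPKM in WT, and P2ry6 alone made up 68.2% to 70.8% of it in labelled KO and 68.2% to 73.2% in WT. The sums did not overlap, and the share of P2ry6 did. This is a share of FPKM and not of transcripts, because P2ry14 is scaled to 11059 exonic bases and P2ry6 to 2887.

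**Figure D3:**
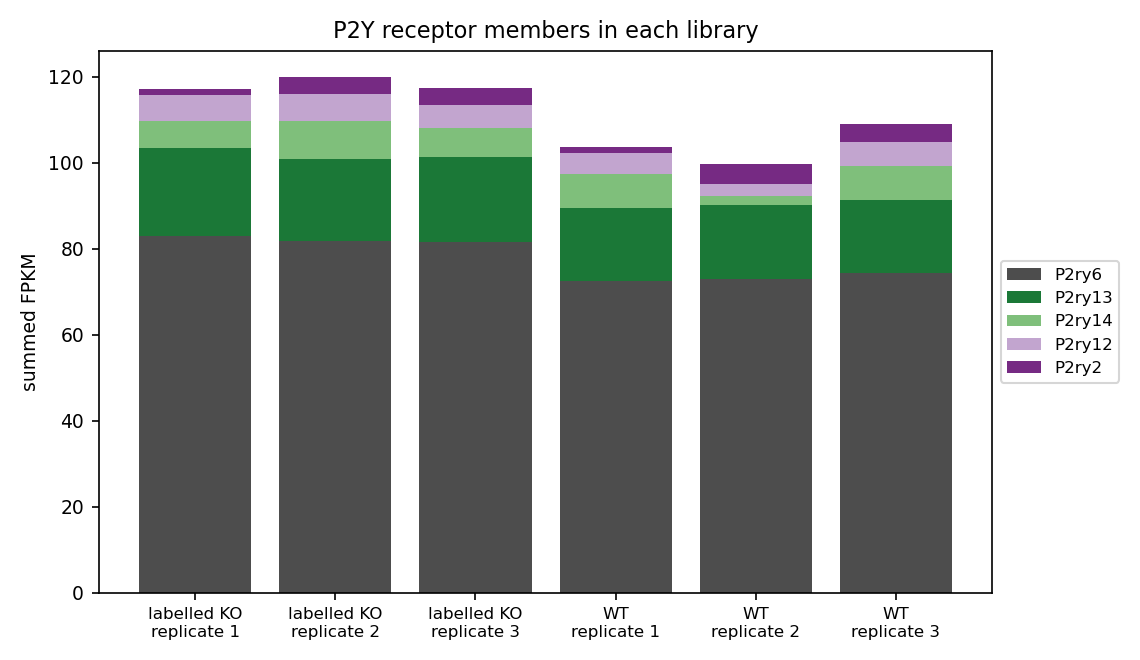
FPKM of the 5 P2Y genes stacked for each library, with the libraries labelled KO on the left and WT on the right. P2ry6 forms most of each bar, the 3 bars of labelled KO (117 to 120) are taller than those of WT (99.8 to 109), and P2ry14 and P2ry12 are thinnest in WT replicate 2.

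Adora2b (ENSMUSG00000018500, chromosome 11, 62248984 to 62266453, plus strand) encodes the adenosine receptor of low affinity, which raises cyclic AMP through Gs. It was the least abundant of the 9 genes per length in both groups, at 2.31, 2.48 and 2.29 FPKM in the libraries labelled KO, against 1.70, 1.89 and 1.81 FPKM in WT. The groups did not overlap. The log2 fold change of 0.38 (SE 0.10, 95% limits 0.13 and 0.62) rested on 237 to 372 estimated counts and missed the threshold at an edgeR adjusted p = 0.0605. The call was made by limma on log2(FPKM + 0.1) (adjusted p = 0.0351) and by edgeR on genes with a mean of at least 1 FPKM (adjusted p = 0.0472), and not by DESeq2 (adjusted p = 0.0616) or in any of the 6 fits with 1 library left out.

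Entpd1 (ENSMUSG00000048120, chromosome 19, 40612366 to 40741602, plus strand) encodes CD39. It read 38.3, 42.9 and 35.9 FPKM in the libraries labelled KO, against 47.5, 40.1 and 40.5 FPKM in WT. The ranges overlapped, with WT replicate 1 the highest of the 6. Entpd1 stood at -0.15 on the log2 scale for labelled KO over WT (edgeR adjusted p = 0.357, with an SE of 0.088), and its 95% limits, -0.36 and 0.07, correspond to ratios of 0.78 and 1.05. Without WT replicate 1 it shrank to -0.06. Downstream of CD39, the CD73 gene Nt5e was near the limit of detection, at 0.0595, 0.112 and 0.0743 FPKM in labelled KO and 0.0395, 0.0769 and 0.055 FPKM in WT, on 27 to 75 estimated counts.

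**Figure D4:**
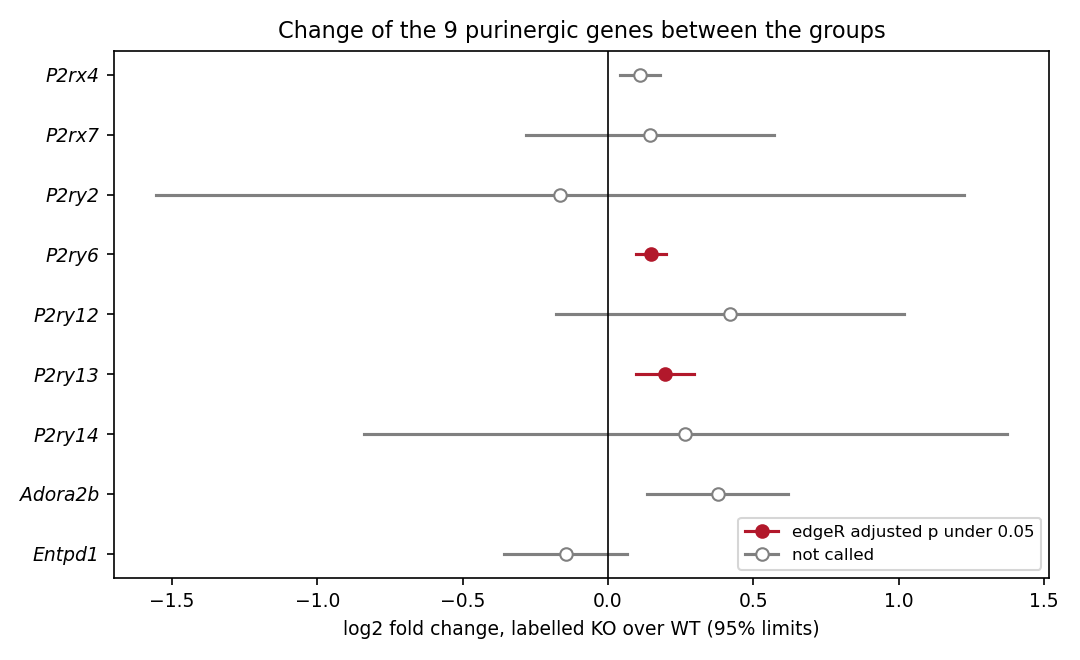
Log2 fold change (labelled KO over WT) of the 9 genes with 95% limits from edgeR, filled red where called. The limits of P2rx4, P2ry6, P2ry13 and Adora2b lie above 0, and those of P2ry2 and P2ry14 are the widest, from -1.55 to 1.22 and from -0.84 to 1.37.

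By level per length, the libraries labelled KO had the order P2ry6, P2rx4, Entpd1, P2rx7, P2ry13, P2ry14, P2ry12, P2ry2 and Adora2b, with means of 82.1, 43.3, 39.0, 21.8, 19.7, 7.35, 5.94, 3.11 and 2.36 FPKM. In WT the order was P2ry6, Entpd1, P2rx4, P2rx7, P2ry13, P2ry14, P2ry12, P2ry2 and Adora2b, with means of 73.3, 42.7, 39.7, 19.5, 17.0, 6.04, 4.38, 3.45 and 1.80 FPKM. The one exchange of rank, between P2rx4 and Entpd1, was within the spread, since their ranges overlapped in both groups. P2rx7 also overlapped P2ry13 in both groups, and P2ry2 overlapped Adora2b in both. In WT alone, P2ry14, P2ry12 and P2ry2 overlapped in sequence. P2ry6 overlapped no other gene in either group. FPKM is scaled to all annotated exonic bases of a gene, so this order depends on the annotation too. P2ry14, with 11059 exonic bases and a longest protein-coding transcript of 2476, ranked below P2ry13, with 2528 exonic bases. In labelled KO P2ry14 had 5993 to 7496 estimated counts, against 3678 to 4390 for P2ry13. In WT replicates 1, 2 and 3 it had 6644, 1840 and 6834, against 3245, 3315 and 3306.

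Of the 9 genes, 8 have an entry in the RefSeq promoter table (GRCm38.p6), and P2ry6 has none. P2rx7, P2ry2 and Entpd1 have 2 entries each and P2ry14 has 4, of which the one nearest to the gene start in the deposited table was searched. That entry starts 1134 bases from the gene start for P2ry14, 114 for P2ry12, 16 for P2rx7 and 0 for the other genes. The 250 bases before the start were searched on both strands for GAGGAAGT (a PU.1 core), the ISRE core, TGANTCA (AP-1), TGACGTCA (CRE) and TTGCNNAA (C/EBP). These occur in 2.44%, 2.98%, 6.75%, 1.55% and 9.56% of all 32851 promoter entries. P2rx7 and P2ry14 each held 1 AP-1 match, P2ry2 and P2ry12 each held 1 C/EBP match, and P2rx4, P2ry13, Adora2b and Entpd1 held none of these motifs. The 250 bases are given for P2rx4, P2ry13 and Adora2b, the genes with an entry whose groups did not overlap, and stand in lower case throughout because none of these motifs matched.
P2rx4, chr5:122707294-122707543, plus strand: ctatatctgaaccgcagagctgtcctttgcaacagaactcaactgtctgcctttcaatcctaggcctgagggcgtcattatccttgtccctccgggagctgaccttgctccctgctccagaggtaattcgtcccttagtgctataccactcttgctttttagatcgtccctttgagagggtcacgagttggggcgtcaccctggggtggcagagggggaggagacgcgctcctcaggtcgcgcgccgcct
P2ry13, chr3:59210883-59211132, minus strand: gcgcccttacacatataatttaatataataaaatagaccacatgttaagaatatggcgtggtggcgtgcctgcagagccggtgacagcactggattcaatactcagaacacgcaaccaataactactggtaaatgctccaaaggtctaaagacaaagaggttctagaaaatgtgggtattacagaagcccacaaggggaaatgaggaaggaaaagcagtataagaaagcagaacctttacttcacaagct
Adora2b, chr11:62248734-62248983, plus strand: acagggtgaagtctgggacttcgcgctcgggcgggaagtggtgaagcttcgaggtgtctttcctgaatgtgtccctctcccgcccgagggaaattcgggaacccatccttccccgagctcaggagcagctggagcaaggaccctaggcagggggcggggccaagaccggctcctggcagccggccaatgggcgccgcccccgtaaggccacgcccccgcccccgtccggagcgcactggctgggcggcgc
They differ widely in composition, with a G and C content of 57.2% for P2rx4, 41.6% for P2ry13 and 69.6% for Adora2b, beside a median of 52.4% over all entries.

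Of 13 other purinergic and P2Y-like receptors, 9 were tested, of which 1 rose in labelled KO and 0 fell. That gene was Adora2a, which encodes the adenosine receptor of high affinity and, like A2B, raises cyclic AMP. Adora2a read 3.43, 3.58 and 3.76 FPKM in the libraries labelled KO, against 1.91, 1.84 and 1.61 FPKM in WT. Its rise of 0.99 on the log2 scale (edgeR adjusted p = 0.00146, with an SE of 0.094) was the largest called in any of the 5 lists of related genes described here. With both receptors measured per length, Adora2b stood at 0.61 to 0.693 of Adora2a in labelled KO and at 0.887 to 1.13 of it in WT. These ranges did not overlap (exact two-sided permutation p = 0.1, the smallest possible). The lower ratio follows from the larger rise of Adora2a (0.99, against 0.38 for Adora2b) in the same libraries, so it is no separate result. Adora3, a Gi-coupled adenosine receptor, read 1.36 ± 0.257 FPKM in labelled KO and 0.90 ± 0.0747 FPKM in WT (SD, n = 3 each) and was not called by edgeR (adjusted p = 0.0746). P2rx3, a channel of sensory neurons, averaged 0.0541 FPKM in labelled KO and 0.127 FPKM in WT without overlap, a log2 fold change of -1.21, and was not called by edgeR (adjusted p = 0.129). Adora3 and P2rx3 are named after their values were seen. The uncalled receptors with the highest level were P2ry10b (log2 fold change 0.10) and Gpr34 (0.27), each below 2 FPKM. Both, like P2ry10, are listed as P2Y-like receptors and are not taken here as receptors for nucleotides. The 4 untested receptors were P2rx2, P2ry4 and Adora1, listed at 0 in all libraries, and P2rx5. P2rx1 and P2ry1, known from platelets, averaged 0.104 and 0.192 FPKM in labelled KO and 0.133 and 0.211 FPKM in WT.

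Enzymes that act on nucleotides, nucleosides and NAD, outside or inside the cell, were mixed, with 3 of 13 tested genes called higher and 1 lower in labelled KO. Bst1 and Cd38, neighbouring paralogs whose products consume NAD, rose by 0.56 (edgeR adjusted p = 0.000296, with an SE of 0.036) and 0.15 (edgeR adjusted p = 0.0041, with an SE of 0.018) on the log2 scale. Bst1 read 71.2, 73.7 and 71.3 FPKM in the libraries labelled KO, against 47.1, 47.0 and 50.4 FPKM in WT. Pnp, which splits inosine and guanosine, rose by 0.25, and Adk, which rephosphorylates adenosine inside the cell, fell by 0.45, to 1.26, 1.32 and 1.33 FPKM in labelled KO, against 1.76, 1.79 and 1.73 FPKM in WT. These 4 calls held in each fit with 1 library left out. Of the CD39 relatives, Entpd6 (log2 fold change -0.10) and Entpd7 (0.00) were the best expressed uncalled genes of the list, at 3.32 and 2.46 FPKM in labelled KO and 3.53 and 2.44 FPKM in WT.

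Among channels and transporters that release nucleotides or move nucleosides, 3 of 14 tested genes were called higher and 1 lower. Lrrc8c, a subunit of the volume-regulated anion channel, rose by 0.63 (edgeR adjusted p = 0.00155, with an SE of 0.061), to 7.11, 6.80 and 6.42 FPKM in labelled KO, against 4.62, 4.13 and 4.26 FPKM in WT. Slc28a2, a concentrative nucleoside transporter, rose by 0.43, a call lost without KO replicate 1 or 2 or WT replicate 2 or 3 (edgeR adjusted p up to 0.06). The lysosomal nucleoside transporter Slc29a3 rose by 0.16, a call lost without WT replicate 3 (edgeR adjusted p = 0.0525). Abcc1, an export pump, fell by 0.21. Panx1, the ATP-releasing pannexin channel, is named after its values were seen: it was at 3.42 FPKM in labelled KO and 3.51 FPKM in WT and was not called (log2 fold change -0.05). Ano6 (log2 fold change 0.32) and Slc35b1 (0.00) were the uncalled genes with the highest level, and Ano6 was called higher without KO replicate 3 (0.21, edgeR adjusted p = 0.018).

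Of 16 genes downstream of P2X7 and in the inflammasome, 2 were called higher and 1 lower in labelled KO. Il1b, the cytokine released after P2X7 opens, read 23.2, 25.1 and 23.9 FPKM in the libraries labelled KO, against 13.3, 14.3 and 12.5 FPKM in WT. Its log2 fold change was 0.83 (edgeR adjusted p = 0.000636, with an SE of 0.064), while that of P2rx7 itself was 0.14 and not called. The sensor gene Nlrp3 rose by 0.23 and the protease gene Casp1 fell by 0.16, and neither call survived leaving out any 1 library, with edgeR adjusted p up to 0.099 for Nlrp3 and 0.129 for Casp1. Casp1 was also not called by edgeR without a low-count filter or by limma on log2(FPKM + 0.1). Ninj1 (log2 fold change 0.53, edgeR adjusted p = 0.104), which drives membrane rupture, and Tmem176b (-0.21) had the highest level of the uncalled genes. Ninj1 read 168 FPKM in WT replicate 1 and 107 and 109 FPKM in the other WT libraries, and was called without WT replicate 1 (log2 fold change 0.77, edgeR adjusted p = 0.00033). Tmem176b was called lower without KO replicate 2 (-0.31, edgeR adjusted p = 0.0458).

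Of 40 tested G protein and effector genes, 3 were called higher and 9 lower, and 18 of the 40 had a log2 fold change above 0. The fits with 1 library left out called 4 lower without KO replicate 3 or WT replicate 2, and 5 without KO replicate 1 or WT replicate 1. Gnai2, the main Gi subunit of leukocytes and a partner of P2Y12, P2Y13 and P2Y14, fell by 0.13, to 153, 152 and 151 FPKM in labelled KO, against 166, 165 and 165 FPKM in WT (edgeR adjusted p = 0.0023, with an SE of 0.014). Gnas, the Gs subunit that adenosine A2 receptors use, fell by 0.13, though not once WT replicate 2 was left out (edgeR adjusted p = 0.0509). The adenylyl cyclase gene Adcy3 fell by 0.70, to 1.16 FPKM in labelled KO against 1.86 FPKM in WT, and the protein kinase A gene Prkacb by 0.22. Pde4b, which degrades cyclic AMP, and Plcb3, a phospholipase that Gq activates, rose by 0.35 and 0.28. Arrb2 (log2 fold change -0.12) and Grk2 (-0.05), which switch receptors off, were the uncalled genes with the highest level. The percentage called was 30.0% in this list, 18.8% among the P2X7 outputs, 28.6% among release and transport genes, 30.8% among the enzymes and 11.1% among the other receptors, where it was 12.7% over all tested genes. The median log2 fold change was -0.03 in this list, 0.07 among the P2X7 outputs, 0.03 among release and transport genes, -0.002 among the enzymes and 0.02 among the other receptors, beside -0.005 over all tested genes.

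**Figure D5:**
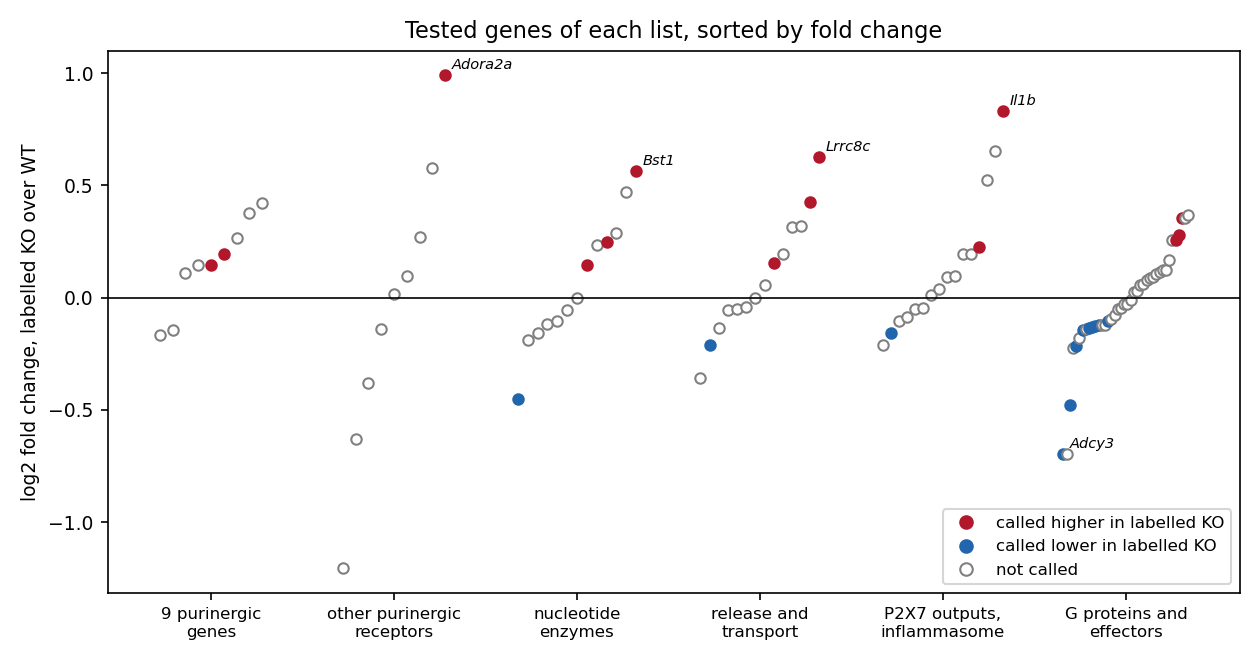
Log2 fold change (labelled KO over WT) of the tested members of each list, sorted within the list, with genes called higher in red, called lower in blue and uncalled open. The 2 called purinergic genes lie at 0.15 and 0.20, below Adora2a (0.99), Il1b (0.83), Lrrc8c (0.63) and Bst1 (0.56), and Adcy3 lies at -0.70.

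Genes that lie near the 9 on their chromosomes were called higher in 5 and lower in 0 of 14 tested, or 35.7% called, beside 12.7% of all tested genes. Siah2 (log2 fold change 0.46), 421.5 kb from P2ry14, Kdm2b (0.25), 140.9 kb from P2rx4, Relt (0.45), 74.2 kb from P2ry6, Ncor1 (0.16), 50.0 kb from Adora2b, and Ccnj (0.31), 89.7 kb from Entpd1, were called. Each of these calls was lost in at least 5 of the 6 fits with 1 library left out. Of the 14, 9 were not called and 8 had a log2 fold change above 0. Every tested neighbour closer to one of the 9 than Ncor1 was uncalled, and their log2 fold changes had both signs. These were Med12l (0.02), Gpr171 (0.24), Ttc19 (0.23), Zswim7 (-0.04), Tctn3 (-0.19), Camkk2 (-0.26) and Arhgef17 (-0.625).

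The genes with the profile nearest to each of the 3 members of smallest adjusted p were sought among 9121 other genes of at least 2 FPKM, by the distance between centred log2 CPM values over the 6 libraries. For P2ry6 they were mt-Rnr1, Tlr8 and Susd6 (distances 0.0191, 0.0275 and 0.0276). P2ry13 was nearest to Ttc13, Trrap and Zc3h12a (0.0202, 0.0313 and 0.0325), and P2rx4 to Vps37a, Erlin1 and Clec12a (0.0253, 0.0357 and 0.0386).

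Markers of other cells that express these receptors were measured beside them. The platelet and megakaryocyte list summed to 135 to 147 FPKM in labelled KO and 178 to 185 FPKM in WT, nearly all of it Pf4, which macrophages also transcribe: 1 of 6 tested genes was called lower and 0 higher. T and NK cell markers summed to 64.0 to 67.2 FPKM in labelled KO and 56.9 to 59.9 FPKM in WT, with 3 of 16 called higher and 1 lower. The highest levels in that list were those of Gzmb (log2 fold change 0.52) and Cd4 (-0.65), which moved in opposite directions. Of its 16 genes, 14 had a log2 fold change above 0, with a median of 0.26. Neutrophil markers summed to 232 to 245 FPKM in labelled KO and 206 to 211 FPKM in WT, with 2 of 8 called higher and 1 lower. That sum was mostly Csf3r and Mmp8, the 2 called higher, while Ltf fell by 0.38 on the log2 scale, 3 of 8 genes had a log2 fold change above 0 and the median was -0.29. Dendritic cell markers summed to under 3 FPKM in each library, with Cd209a and Siglech at 0, and 0 of 6 were called (edgeR, 0 also at an unadjusted p under 0.05). B cell markers summed to 9.15 to 12.3 FPKM in labelled KO and 9.03 to 9.48 FPKM in WT, led by Ighm and Igkc, and 0 of 7 were called by edgeR (1 at an unadjusted p under 0.05). Mast cell and basophil markers summed to 0.25 to 0.35 FPKM in labelled KO and 0.23 to 0.25 FPKM in WT, with Mcpt4, Fcer1a, Tpsb2 and Ms4a2 at 0, and the 1 gene tested, Mcpt8, was not called. Stromal and endothelial markers summed to 7.75 to 8.56 FPKM in labelled KO and 8.82 to 9.7 FPKM in WT, with 1 of 11 called higher and 1 lower. The share called was 16.7% in the platelet list, 25.0% in the T and NK list, 37.5% in the neutrophil list and 18.2% in the stromal list, beside 12.7% of all tested genes. The part of these cells in the changes of P2ry6 and P2ry13 was not tested.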

How the data were processed

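The submitters' processing notes name the tools HISAT2 2.0.4, StringTie 1.3.4d and cutadapt 1.9 and the build mm10. Settings, annotation release and strand handling are not stated in the labels. Per the file headers, the deposited table gives an FPKM and a count for each gene and library. The deposited counts were treated as estimated counts, since 36.9% to 40.4% of values from 1 to 20 were multiples of 4, and were rounded. Both columns hold the same measurement: their ratio, scaled to library totals, varied by at most 0.96% between libraries for each of the 9 genes. The test was edgeR 4.0.16 in R 4.3.3 (TMM, filterByExpr with minimum count 10 and minimum total 15, glmQLFit, glmQLFTest), labelled KO over WT, called at an adjusted p under 0.05 over all tested genes. Standard errors came from the F statistic, and 95% limits from its degrees of freedom. Alternatives used DESeq2 1.42.0, limma 3.58.1 and other filters, scalings and subsets. The test was checked on simulated data.

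The 9 genes, the lists and the tests were chosen with earlier results of these data known. Named are the 9, Mettl3, up to 6 called and the 2 best expressed uncalled genes of each list, called or overlapping neighbours, the leading markers and the nearest profiles. Csf1r, Adgre1, Timd4, Nt5e, P2rx1, P2ry1, Adora3, P2rx3, Ltf and Panx1, the untested receptors and the uncalled neighbours that overlap no member were added after their values were seen. A further promoter motif and a marker gene are not reported here.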

Additional observations from a re-analysis of the deposited data

How the results depend on the processing

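Fold changes here are on the log2 scale, labelled KO over WT, and the cause of each shift was not tested. Over the whole series, 2060 genes were called, against 604 without replicate 1 of both groups (an alternative chosen after seeing the data) and 1244 to 1339 with 1 library left out. Fitting the replicate number as a block gave 1012. Over all tested genes, same-numbered libraries did not deviate together (correlations -0.021, -0.014 and 0.015). With 3 libraries a group, this cannot settle whether they share a preparation. With the block, 0 of the 9 genes were called higher (P2ry6 0.15, P2ry13 0.19), P2X7 outputs had 1 called higher and 0 lower, and G proteins and effectors 3 lower. Without replicate 1 of both groups, 0 of the 9 were called (P2ry6 0.13, P2ry13 0.17), release and transport genes had 1 higher and 0 lower, enzymes 0 lower, P2X7 outputs 0 lower, and G proteins and effectors 0 higher and 2 lower. With 1 library left out, 1 to 2 of the 9 were called higher, 1 to 2 other receptors higher, 1 to 4 release and transport genes higher, 1 to 2 P2X7 outputs higher and 0 to 1 lower, and 4 to 6 G proteins and effectors lower. In those fits P2rx4 was 0.08 to 0.13, P2ry13 0.17 to 0.22, P2ry2 -0.54 to 0.22 (0.13 without WT replicate 2 and 0.01 without WT replicate 3) and P2ry14 -0.13 to 0.53. DESeq2 called P2rx4 (0.11) and 2 other receptors higher. Adora2b was called on genes of at least 1 FPKM (0.37) and by limma with a pseudocount of 0.1 (0.38), 1 (0.26) or 0.01 (0.39). Limma with a pseudocount of 1 called 4 of the 9, with P2rx4 at 0.12. P2X7 outputs called lower numbered 0 under each limma setting and without a low-count filter, and 2 on genes of at least 1 FPKM. P2rx7, P2ry12 and Entpd1 were uncalled with the same sign in all 15 alternatives. Depth limits Adora2b most, at 237 to 372 estimated counts.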
